A study of Mus musculus with 5 samples.

Results

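The 10 Polycomb genes Ezh1, Ezh2, Eed, Suz12, Bmi1, Cbx2, Cbx7, Cbx8, Ring1 and Rnf2 were followed in long-term haematopoietic stem cells (LT-HSCs) sorted from conditional knockout mice of Zbtb7a, which encodes the transcription factor LRF, and from their controls. They were chosen by name as subunits of the Polycomb repressive complexes, out of 18193 genes with a measurement of their own on the array. Each gene was read by its probe sets, groups of short probes against 1 transcript, and all 28 probe sets that the platform annotation gave to 1 of these genes alone were used. The knockout group was 3 arrays from Zbtb7a Flox/Flox Mx1-Cre+ mice and the control group 2 arrays from Zbtb7a Flox/+ Mx1-Cre+ mice. All mice were C57BL/6 and 4 weeks old, and all received 2 injections of 250 µg of pIpC, a double-stranded RNA analogue that induces interferon and so switches on Cre under the Mx1 promoter. LT-HSCs were collected on day 9 after the first injection by flow sorting from the LSK fraction (no lineage markers, Sca-1 and Kit present), gated as lacking IL7Ra, Flt3 and CD48 and carrying CD150. Controls thus carried Cre and pIpC exposure too and had 1 intact Zbtb7a allele, so the comparison asks what loss of the remaining allele does and cannot show effects of losing the first. Cre from this promoter acts in any cell that responds to interferon, not in stem cells alone. The description of knockout replicate 3 names 2 animals where the others name 1, and nothing else says how animals map to arrays, so the spread between arrays may be partly technical.

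Polycomb proteins keep genes silent through marks on histones. Polycomb repressive complex 2 (PRC2) methylates lysine 27 of histone H3 through EZH2 or EZH1, which work only together with EED and SUZ12. Polycomb repressive complex 1 (PRC1) attaches ubiquitin to histone H2A through RING1 or RNF2 (RING1B); a PCGF protein such as BMI1 partners them, and a CBX protein such as CBX2, CBX7 or CBX8 binds the PRC2 mark. In the blood system Bmi1 is known to be needed for stem cell self-renewal, Cbx7 to favour self-renewal and Cbx8 to compete with it for a place in PRC1, and Ezh1 to be linked to stem cells and Ezh2 to dividing cells.

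None of the 10 genes differed clearly between the groups: the 95% interval of each difference, from limma, covered zero. Differences in log2 intensity, knockout minus control, ran from -0.31 for Cbx2 to 0.16 for Rnf2, with 4 genes higher and 6 lower and a median of -0.0043, against a median of -0.030 over the 12813 genes tested. Without knockout replicate 2 the count turned, with 7 genes higher and 3 lower (Ezh1, Cbx2 and Cbx8) and a median of 0.042, against 0.0032 over all genes tested. In the limma fit of the whole table, 0 of the 10 were called at an adjusted p under 0.05 (0% of 27022 probe sets were called), and 0 had an unadjusted p under 0.05 (1.13% of probe sets had). Knockout and control values overlapped for all 10 genes, while the groups did not overlap for 7.18% of all genes tested. The median size of the difference, regardless of sign, was 0.11 over the 10 genes and 0.14 over all genes tested. A miss of the threshold does not show equal levels: the 95% intervals of the limma fit stayed within 1 log2 unit (a doubling or halving) of zero for 8 genes, and reached beyond it for Bmi1 and Cbx2.

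**Figure D1:**
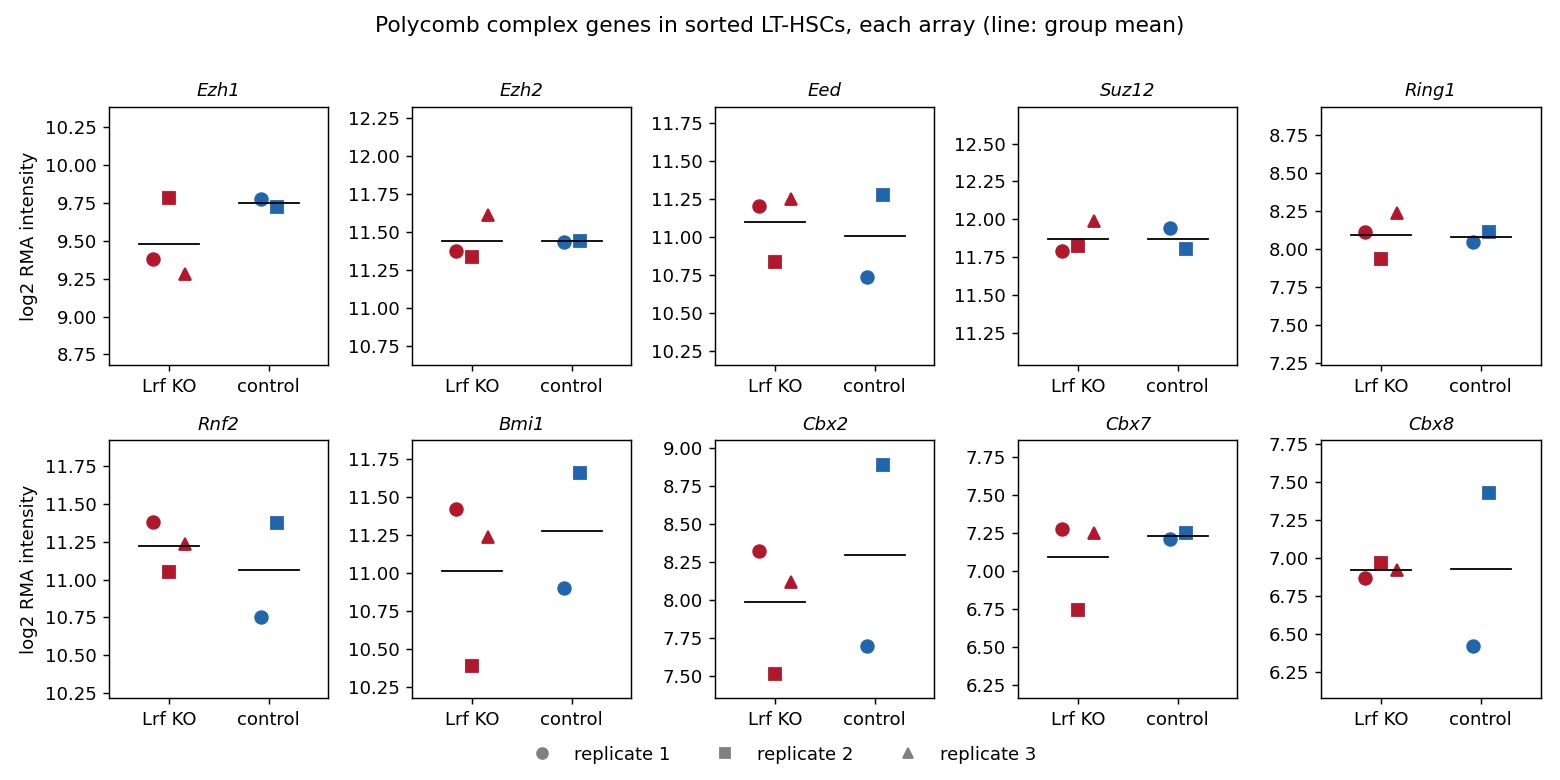
Log2 RMA intensity (vertical axis, each panel spanning the same 1.7 log2 units) of the brightest probe set of each gene in 3 Lrf knockout arrays (red) and 2 control arrays (blue); symbols give the replicate and lines the group means. Knockout and control points overlap in every panel, and the spread is widest for Cbx2 and Bmi1 and narrowest for Suz12 and Ezh2.

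The promoters of 4 genes on which the results turn are printed here: the catalytic pair Ezh2 and Ezh1, Suz12, whose brightest probe set varied least, and Bmi1, one of the widest. Sequences are RefSeq's on GRCm38.p6, 300 bases each, from 250 before the annotated start of transcription to 50 from it, 5′ to 3′ on the gene's own strand. The start that RefSeq's table uses is the outer end of the annotated gene for Ezh1, Suz12 and Bmi1, but lies 240 bases inside it for Ezh2 (position 47595030). Capitals mark a match to the core word of E2F factors, which drive genes of the cell cycle (TTCCCGC or TTCGCGC or TTGCCGC or TTGGCGC, searched on both strands).
Ezh2, chr6:47594981-47595280, minus strand: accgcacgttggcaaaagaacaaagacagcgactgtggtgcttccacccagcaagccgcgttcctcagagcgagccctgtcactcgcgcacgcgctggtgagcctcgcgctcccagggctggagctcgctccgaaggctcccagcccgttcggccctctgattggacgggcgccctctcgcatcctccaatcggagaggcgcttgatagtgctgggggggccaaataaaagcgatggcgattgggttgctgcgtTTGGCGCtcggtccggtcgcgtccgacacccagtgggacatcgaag
Ezh1, chr11:101226414-101226713, minus strand: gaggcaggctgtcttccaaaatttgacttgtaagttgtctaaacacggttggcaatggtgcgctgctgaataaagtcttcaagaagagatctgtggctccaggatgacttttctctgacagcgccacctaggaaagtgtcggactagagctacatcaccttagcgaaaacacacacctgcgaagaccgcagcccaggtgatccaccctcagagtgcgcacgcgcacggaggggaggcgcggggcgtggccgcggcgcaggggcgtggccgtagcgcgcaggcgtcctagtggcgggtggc
Suz12, chr11:79992856-79993155, plus strand: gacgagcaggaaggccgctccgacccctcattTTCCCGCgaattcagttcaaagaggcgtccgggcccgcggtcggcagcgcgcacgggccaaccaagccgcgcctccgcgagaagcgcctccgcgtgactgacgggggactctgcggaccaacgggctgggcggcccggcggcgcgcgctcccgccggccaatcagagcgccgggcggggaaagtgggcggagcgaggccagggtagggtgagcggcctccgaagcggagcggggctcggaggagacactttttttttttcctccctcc
Bmi1, chr2:18676768-18677067, plus strand: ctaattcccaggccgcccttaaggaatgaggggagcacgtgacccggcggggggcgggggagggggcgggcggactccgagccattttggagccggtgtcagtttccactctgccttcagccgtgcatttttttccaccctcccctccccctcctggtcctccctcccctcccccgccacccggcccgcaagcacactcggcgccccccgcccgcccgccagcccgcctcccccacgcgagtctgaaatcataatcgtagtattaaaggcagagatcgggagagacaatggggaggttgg
A promoter was found for 9 of the 10 genes, not for Cbx2. Of these 9, 2 held a word, Ezh2 starting 4 bases after the first base transcribed from that inner start and Suz12 starting at position -218 from its own, and 9.57% of 32851 promoters of this length did. A match is a description of letters, and its absence says only that these words are not in the window. All 9 held more CpG dinucleotides than the median of 7 over all promoters, from 17 in Eed (more than in 68.6% of promoters) to 41 in Suz12. Ezh2 had 31, Ezh1 and Bmi1 23 each. The Cbx7 window belongs to a start 38497 bases inside the outer end of the annotated gene.

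Ezh2 (chromosome 6, 47530274 to 47595270 on GRCm38.p6), the main H3K27 methyltransferase, had a single probe set. In replicate order, as for all genes below, it read 11.38, 11.34 and 11.61 in the 3 knockouts and 11.44 in both controls. Both controls thus lay inside the range of the knockouts, and the group means were 11.44 ± 0.15 (SD, n = 3) in knockouts and 11.44 ± 0.001 (SD, n = 2) in controls. The difference was 0.0029 (SE 0.16; 95% interval -0.40 to 0.41; limma adjusted p = 1), which as a fold change is 1.002 with an interval of 0.76 to 1.33. Of all genes tested, 11.0% varied less over the 5 arrays, whose highest and lowest values for Ezh2 were 0.28 apart.

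Ezh1 (chromosome 11, 101191115 to 101226463), the alternative methyltransferase, had the smallest unadjusted limma p of the 10 (0.247). Its brightest probe set read 9.38, 9.78 and 9.28 in the 3 knockouts and 9.78 and 9.72 in the 2 controls. Knockout replicates 1 and 3 lay below both controls, and knockout replicate 2 lay just above them. Means were 9.48 ± 0.26 (SD, n = 3) in knockouts and 9.75 ± 0.038 (SD, n = 2) in controls. The log2 difference was -0.27 (SE 0.20; interval -0.80 to 0.26; limma adjusted p = 1). The exact two-sided permutation test over the 5 arrays gave p = 0.4, where 0.1 is the smallest it can give. Without knockout replicate 2 the difference was -0.42. Of the alternatives and left-out arrays tried, none turned the sign for Ezh1. Its 3 other probe sets lay below the filter (means 5.27, 4.62 and 4.14) and differed by -0.20, -0.18 and 0.0050.

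Eed (chromosome 7, 89954654 to 89980976), which reads the H3K27 mark and activates the enzyme, read 11.20, 10.84 and 11.25 in the 3 knockouts and 10.74 and 11.28 in the 2 controls. The controls enclosed all 3 knockout values. The difference was 0.090 (SE 0.24; interval -0.55 to 0.73), from 11.10 ± 0.23 (SD, n = 3) in knockouts and 11.01 ± 0.38 (SD, n = 2) in controls. A dim second Eed probe set, below the filter, differed by -0.13.

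Suz12 (chromosome 11, 79993106 to 80034123), the subunit that holds PRC2 together, had 6 probe sets, all above the filter. The brightest read 11.79, 11.82 and 11.99 in the 3 knockouts and 11.94 and 11.80 in the 2 controls. These values lay within 0.19 of each other, a narrower range than in all but 5.60% of genes tested. The difference was -0.0041 (SE 0.15; interval -0.39 to 0.38), and the other 5 probe sets differed by -0.042 to 0.088. The spread differed between them, and the dimmest, at a mean of 7.03, ran from 6.35 in knockout replicate 2 to 7.83 in knockout replicate 3. Of the 6, 3 carry the suffix _s_at, which marks probes that can match more than 1 transcript.

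Among the ubiquitin ligases of PRC1, Ring1 (chromosome 17, 34020792 to 34024680) read 8.11, 7.94 and 8.23 in the 3 knockouts and 8.05 and 8.11 in the 2 controls. Its difference was 0.015 (SE 0.16; interval -0.40 to 0.43). Rnf2 (chromosome 1, 151469398 to 151500991), which codes for the main PRC1 ligase of mouse embryonic stem cells, read 11.38, 11.05 and 11.24 in the knockouts and 10.75 and 11.37 in the controls. Control replicate 1 was the low array, and the other control lay level with the highest knockout. The Rnf2 difference was 0.16 (SE 0.24; interval -0.48 to 0.80), and a second probe set of the gene gave 0.20 (SE 0.25). Its 3 remaining probe sets lay below the filter and differed by -0.080 to -0.028.

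Bmi1 (chromosome 2, 18677018 to 18686629), the PCGF partner that activates the ligase, read 11.42, 10.39 and 11.24 in the 3 knockouts and 10.90 and 11.66 in the 2 controls. Knockout replicate 2 was the lowest array and control replicate 1 the next lowest, so that each group held both a high and a low array. Means were 11.02 ± 0.55 (SD, n = 3) in knockouts and 11.28 ± 0.54 (SD, n = 2) in controls, a difference of -0.26 (SE 0.42; interval -1.36 to 0.83; exact permutation p = 0.7). The second Bmi1 probe set gave 9.76, 8.62 and 9.86 in knockouts and 9.34 and 10.24 in controls, the same order except that knockout replicate 3 lay above replicate 1. Without knockout replicate 2 the Bmi1 difference was 0.050, and without control replicate 2 it was 0.11.

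Of the CBX readers, Cbx2 (chromosome 11, 119023019 to 119031275) read 8.32, 7.51 and 8.12 in the 3 knockouts and 7.70 and 8.89 in the 2 controls. Its values spread over 1.38 log2 units, more than in 81.1% of genes tested, and the 2 controls alone were 1.19 apart. The difference was -0.31 (SE 0.45; interval -1.50 to 0.88), the largest in size among the 10 genes, and became 0.29 without control replicate 2 and -0.91 without control replicate 1. Cbx8 (chromosome 11, 119036303 to 119040913), a neighbour of Cbx2 and like Cbx7 a reader of the H3K27 mark, read 6.87, 6.97 and 6.92 in knockouts and 6.42 and 7.43 in controls. All 3 knockouts of Cbx8 thus lay within 0.10 of each other and between the controls, and the difference was -0.0046 (SE 0.33; interval -0.87 to 0.86). Cbx7 (chromosome 15, 79915804 to 79971143) read 7.28, 6.75 and 7.25 in knockouts and 7.21 and 7.25 in controls, so that knockout replicate 2 alone stood low. Its difference was -0.14 (SE 0.22; interval -0.72 to 0.44), while a second tested probe set gave 0.11 (SE 0.14). The dimmer probe sets of Cbx2, Cbx7 and Cbx8 lay below the filter and differed by -0.086, 0.038 and 0.0001.

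**Figure D2:**
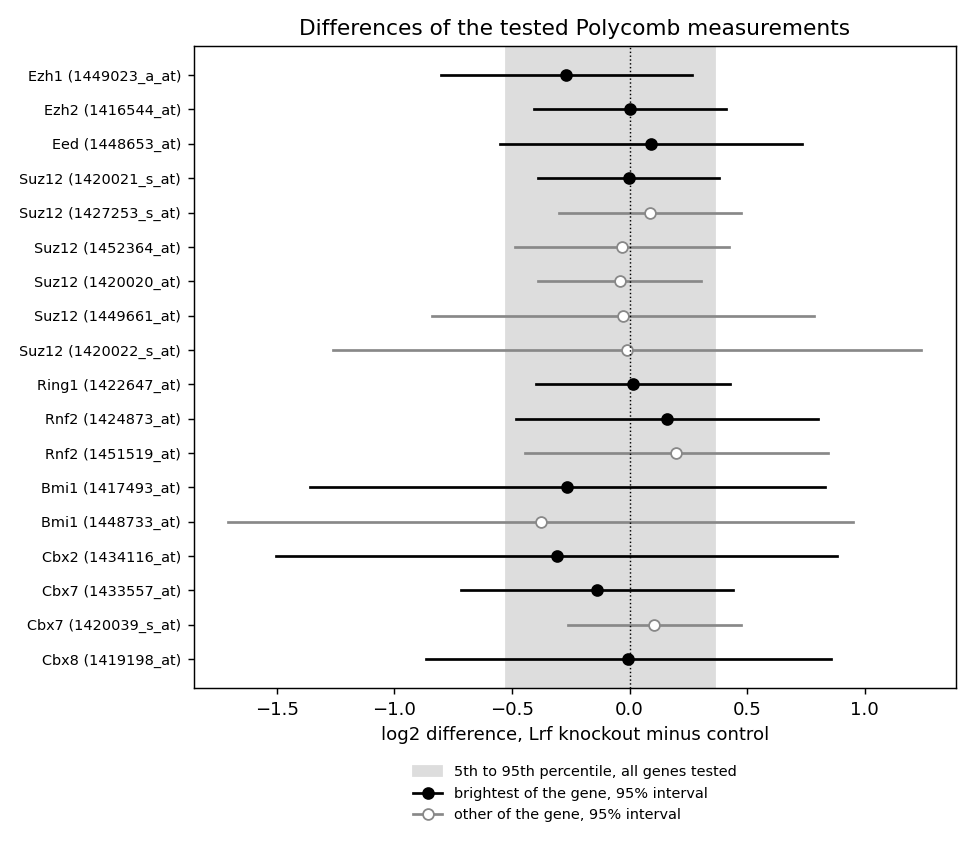
Log2 difference, knockout minus control (horizontal axis), with its 95% interval from limma for the 18 probe sets of the 10 genes that passed the filter; filled points are the brightest of each gene and the grey band holds the 5th to 95th percentile of all genes tested (-0.53 to 0.36). Every interval covers zero and every point lies inside the band; the intervals of Bmi1 and Cbx2 and of the dimmest Suz12 probe set reach beyond 1 unit.

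Paralogues that take each other's place were set against each other by how their log2 difference within an array moved between arrays, since levels of different probe sets cannot be compared. Centred on the mean of the 5 arrays, Ezh1 over Ezh2 stood at -0.14, 0.30 and -0.48 in knockouts and at 0.19 and 0.14 in controls. The balance lay on the Ezh2 side in knockout replicates 1 and 3 and on the Ezh1 side in the other 3 arrays, and averaged -0.11 ± 0.39 (SD, n = 3) in knockouts and 0.16 ± 0.04 (SD, n = 2) in controls. The balance of Cbx7 over Cbx8 stood at 0.18, -0.45 and 0.10 in knockouts and at 0.57 and -0.40 in controls, with the ends of the range held by 1 array of each group. Ring1 over Rnf2 stood at -0.19, -0.046 and 0.068 in knockouts and at 0.36 and -0.19 in controls, control replicate 1 alone being far from zero. No p was computed for these balances, which were built from the members themselves.

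The order of the arrays was shared by many of the genes. For 6 of the 10 genes (Eed, Ring1, Rnf2, Bmi1, Cbx2 and Cbx7) knockout replicate 2 and control replicate 1 were the 2 lowest arrays, as they were for 32.0% of all genes tested. Of these 6 genes, 5 belong to PRC1. This pair of arrays was singled out after the values were seen, so the count is a description. Relative to the mean of the 5 arrays, Bmi1 lay at -0.73 and Cbx2 at -0.60 in knockout replicate 2, and at -0.22 and -0.41 in control replicate 1. Ezh2 and Suz12 moved by at most 0.17 in any array.

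These arrays also differed in markers of cell types. Knockout replicate 2 correlated with the others at 0.945 to 0.970 across probe sets, where other pairs reached 0.990. All 10 measured LT-HSC markers, Kit, Mecom and Hlf the brightest, were at their lowest in that array, as were 40.7% of all genes tested. For 8 of these 10 markers, control replicate 1 was the next lowest, the same pair of arrays as for the 6 Polycomb genes and for 32.0% of all genes tested. The median marker deviation from the 5-array mean stood at 0.28, -1.77 and 0.64 in knockouts and at 0.032 and 0.83 in controls. All 10 lay above the filter by their mean, so the labelled cell type's markers were detected. Transcripts of the gated-out Flt3, Cd48 and Il7r were above it too, and Il7r read 9.35, 10.50 and 7.44 in knockouts and 6.21 and 7.30 in controls. Neutrophil markers (8 of 8 above the filter, S100a8, Ngp and Camp the brightest) stood at -1.94, 1.34 and -0.39 in knockouts and at 1.22 and -0.19 in controls. They were thus high in knockout replicate 2 and control replicate 1, the same pair again. Macrophage markers (12 of 12 above the filter, Vcam1, C1qb and Mrc1 the brightest) stood at -1.01, -1.57 and 0.27 in knockouts and at 1.59 and 0.72 in controls. The groups did not overlap for 9 of these 12, against 7.18% of all genes tested. Nor did they for 6 of 7 interferon-stimulated genes, 3 of 5 megakaryocyte markers and 2 of 4 mast cell and basophil markers tested. In each other list of this paragraph, the groups were apart for 1 tested gene at most. B cell markers (Vpreb1, Cd79b and Igll1 the brightest) were highest in knockout replicate 2 for 6 of 6 measured, with a median deviation of 1.49 there and -0.71 to -0.27 elsewhere. So were 5 of 5 granulocyte-monocyte progenitor markers (1.20; Mpo, Prtn3 and Ctsg) and 10 of 10 immediate early genes (3.19; Dusp1, Ier2 and Egr1). The same held for 5 of 5 mast cell and basophil markers (1.54; Cpa3, Mcpt8 and Ms4a2) and 5 of 6 T cell markers (0.90), Cd3e and Cd3d among them. The exception was Thy1, the brightest T cell marker, at 8.16, 7.37 and 7.79 in knockouts and 6.15 and 7.77 in controls. In these lists, 2 immediate early genes, 1 mast cell and basophil marker and 3 T cell markers lay below the filter. Erythroid markers (Car1, Klf1 and Slc4a1) stood at 0.14, -0.12 and 0.18 in knockouts and at 0.66 and -0.995 in controls. This median hid genes that moved apart. Slc4a1 read 9.03, 13.54 and 11.82 in knockouts and 13.63 and 10.34 in controls. Alas2 was also high in knockout replicate 2 (12.89) and control replicate 1 (11.75), and read 6.71 to 7.88 elsewhere. Car1 was lowest in knockout replicate 2 (11.22), and Klf1 and Epor in control replicate 2. Megakaryocyte markers (Pf4, Itga2b and Gp9) stood at -0.11, -0.52 and 0.11 in knockouts and at 0.33 and 0.29 in controls. Interferon-stimulated genes (Rsad2, Oasl2 and Ifit1) stood at 2.43, -0.091 and -0.40 in knockouts and at -1.06 and -0.89 in controls. Rsad2, the brightest, did not follow this median, at 13.11, 13.69 and 10.67 in knockouts and 13.23 and 10.73 in controls. The part of these markers in the Polycomb values was not tested, and in sorted bulk RNA fewer cells of a type and less RNA per cell cannot be told apart.

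**Figure D3:**
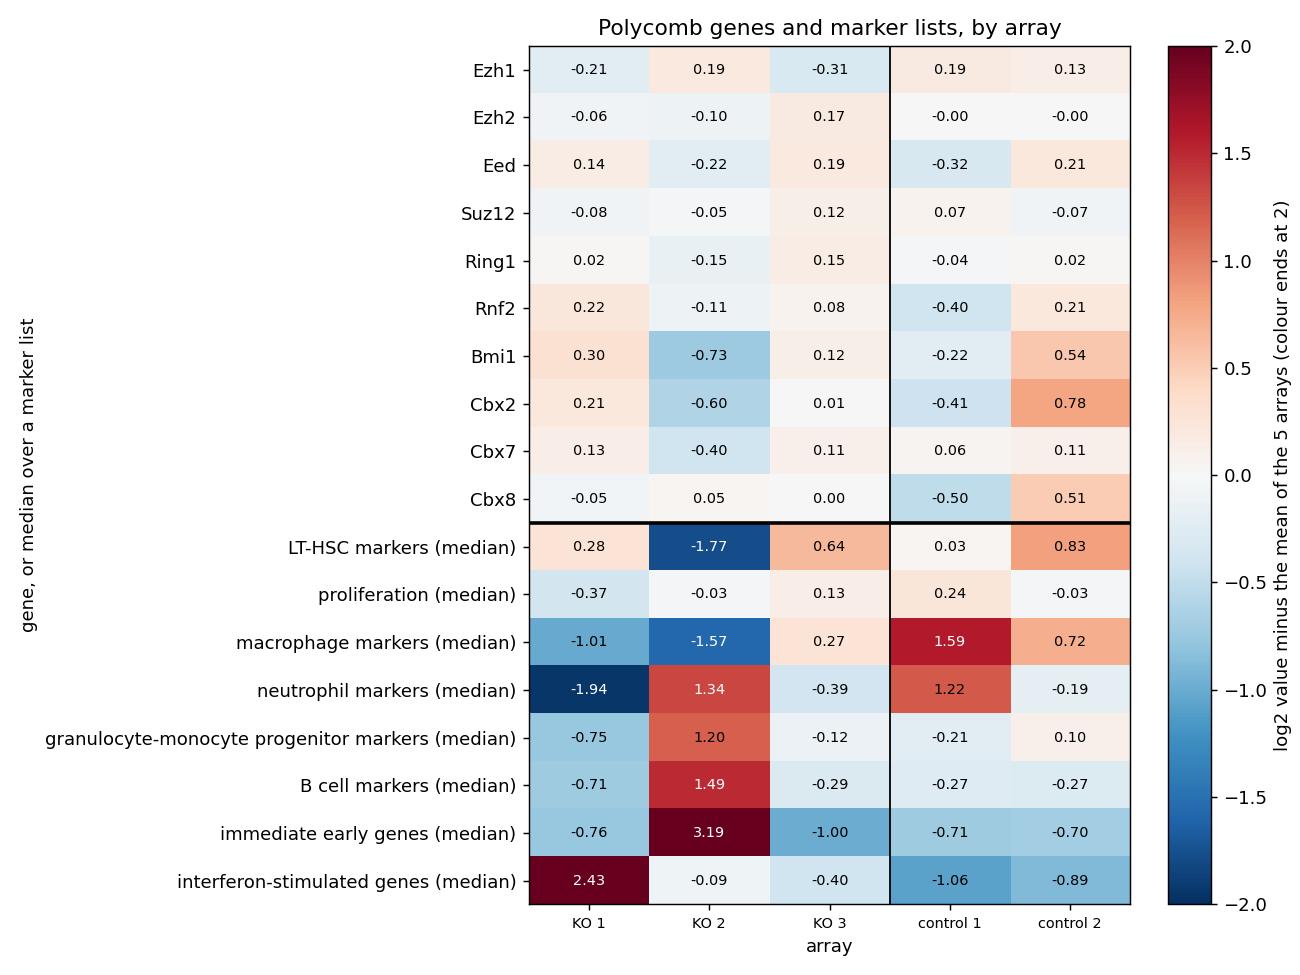
Log2 value minus the mean of the 5 arrays for each Polycomb gene (above the black line) and, as the median over each marker list, below it; columns are the 3 knockout arrays and the 2 control arrays, and colour ends at 2. Bmi1 and Cbx2 are lowest in knockout replicate 2, where LT-HSC markers stand at -1.77, and Ezh2 and Suz12 stay within 0.17 of zero in every array.

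Zbtb7a itself did not separate the groups: its brightest probe set read 8.72, 8.33 and 9.06 in knockouts and 8.22 and 8.36 in controls (difference 0.41, exact permutation p = 0.3), and its others differed by -0.36 and -0.054. Since the floxed stretch is not stated in the labels, these probe sets check nothing about the deletion. Array medians ran from 6.38 to 6.40.

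Over all genes tested, 56.3% had a lower mean in knockouts with all arrays and 48.9% without knockout replicate 2. Among the other subunits of PRC2, none of the tested genes passed the adjusted threshold. Of 8 listed, 8 were measured and 7 passed the filter, 3 with higher and 4 with lower values and 0 called, with a median difference of -0.057 with all arrays and 0.13 without knockout replicate 2. Jarid2, which helps recruit PRC2, had the smallest p: it read 10.97, 11.00 and 11.39 in knockouts and 11.00 and 10.61 in controls, a difference of 0.32 (SE 0.22; limma adjusted p = 1). Phf1, which binds methylated H3K36 and stimulates the complex, differed by 0.31 (SE 0.25), or 0.13 without knockout replicate 2, its high array. The histone-binding subunit gene Rbbp4 had groups that did not overlap, at 13.66, 13.49 and 13.66 in knockouts and 13.79 and 13.68 in controls, but the gap between the nearest arrays was small and the difference was -0.13 (SE 0.14). Its partner Rbbp7 differed by -0.12 (SE 0.23), or 0.064 without that array.

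Of 20 other PRC1 genes, 18 were measured and 16 passed the filter, 4 higher and 12 lower, 0 called and 0 with groups that did not overlap. Their median difference was -0.099 with all arrays and 0.12 without knockout replicate 2, with 12 higher and 4 lower, so the side on which most of them lay rested on that array. Knockout replicate 2 and control replicate 1 were the 2 lowest arrays for 13 of the 16, beside the 32.0% of all genes given above. Scml2, a sex comb protein, read 7.95, 6.11 and 7.94 in knockouts and 7.88 and 8.32 in controls, and differed by -0.77 (SE 0.66) with that array and by -0.15 without it. E2f6, a DNA-binding repressor of variant PRC1, differed by -0.38 (SE 0.46), and by -0.010 without it. Kdm2b, which brings variant PRC1 to CpG islands, differed by -0.19 (SE 0.27), or 0.016 without it. Yaf2, an adaptor of variant PRC1, differed by -0.14 (SE 0.20), or -0.26 without it.

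Among enzymes and partners that remove ubiquitin from H2A, 5 of 6 genes passed the filter, 0 were called, and 1 had an unadjusted p under 0.05. This was Mysm1, an H2A deubiquitinase known to be required in blood stem cells, which read 8.70, 8.29 and 8.46 in knockouts against 8.99 in both controls. All 3 knockouts lay below both controls, and the difference was -0.50 (SE 0.18; limma p = 0.0390, adjusted p = 1; exact permutation p = 0.2). Without knockout replicate 2 it was -0.41. Asxl1, a cofactor of the deubiquitinase BAP1, differed by -0.26 (SE 0.19), Bap1 by -0.16 (SE 0.24) and Usp16 by 0.095 (SE 0.24); without that array they differed by -0.19, 0.029 and 0.27. The H3K27 demethylase gene Kdm6b read 10.94 in knockout replicate 2 and 9.29 to 9.76 in the other 4 arrays, and differed by 0.38 (SE 0.52), or -0.094 without that array. Kdm6a differed by -0.035 (SE 0.33).

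Trithorax genes, whose products keep Polycomb targets active, had 9 of 10 measured and tested, 3 higher and 6 lower and 0 called, with a median of -0.040. Without knockout replicate 2 the count was reversed, with 6 higher and 3 lower and a median of 0.043. Kmt2a, the H3K4 methyltransferase MLL1, read 9.81, 9.19 and 9.23 in knockouts and 9.60 and 10.01 in controls, a difference of -0.40 (SE 0.27). Ash2l, a subunit shared by such methyltransferases, differed by -0.37 (SE 0.25), Men1 by -0.16 (SE 0.30) and Kmt2d by 0.092 (SE 0.19). Without that array Ash2l differed by -0.17, Men1 by 0.020 and Kmt2d by 0.19.

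Of 6 genes that Polycomb is known to repress in blood progenitors, none was called and 2 lay below the filter. Cdkn2a, the classical Bmi1 target, whose products p16 and p19 stop the cell cycle, read 4.81, 4.73 and 4.78 in knockouts and 4.73 in both controls, all below the filter level of 5.77. Cdkn2b lay below it too. Of the 4 tested, 3 were higher and 1 lower with a median difference of 0.085, and without knockout replicate 2 the count was 1 higher and 3 lower with a median of -0.24. Ebf1, a B lineage factor, read 4.97, 9.38 and 4.99 in knockouts and 6.11 and 6.43 in controls: the high array was knockout replicate 2, where B cell markers were also highest, and the other 2 knockouts lay below both controls. Its difference was 0.18 (SE 1.52) with that array and -1.29 without it. Knockout replicates 1 and 3 lay below the filter level of 5.77, and the mean of Ebf1 passed the filter only with knockout replicate 2. The -1.29, which enters the median of -0.24, thus rests on dim values. Hmga2, a chromatin protein of fetal stem cells, differed by -0.58 (SE 0.35), Igf2bp3 by 0.12 (SE 0.17) and Pax5 by 0.046 (SE 0.25); without that array they differed by -0.34, 0.082 and -0.13. Proliferation genes, given because Ezh2 is linked to dividing cells, had 20 of 21 measured and tested, 18 lower and 2 higher and 0 called, with a median of -0.21, or -0.12 without knockout replicate 2. The 4 with the smallest p were Cdk1 (-0.23, SE 0.17), Ccna2 (-0.39, SE 0.29), Mcm7 (-0.27, SE 0.20) and Mcm3 (-0.36, SE 0.28). Without that array they differed by -0.25, -0.44, -0.13 and -0.14.

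**Figure D4:**
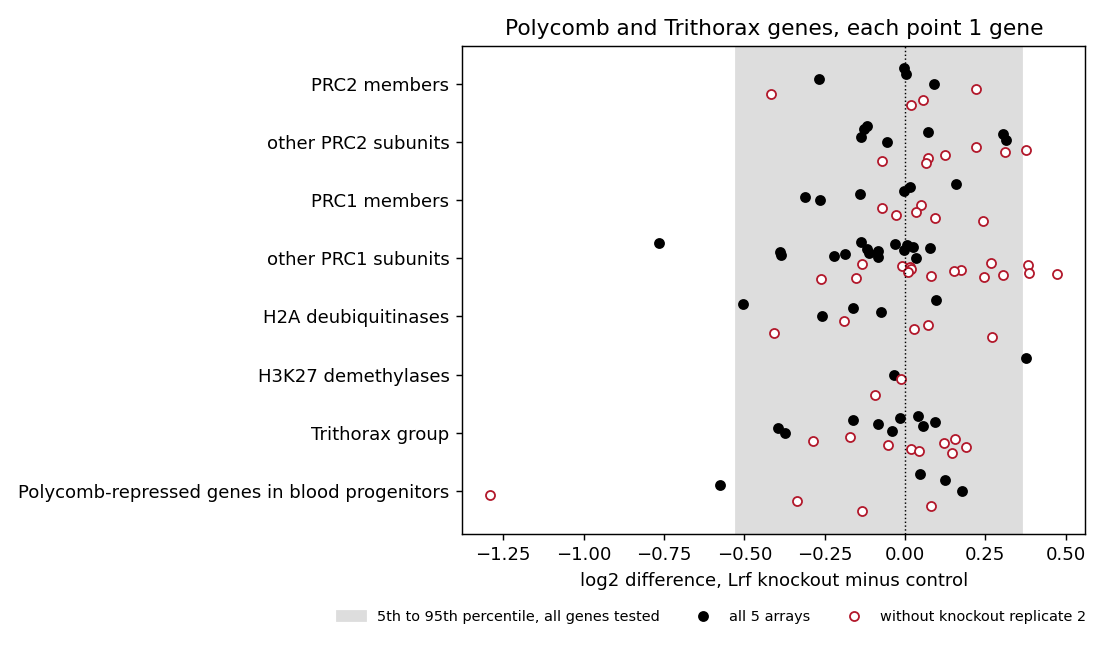
Log2 difference, knockout minus control (horizontal axis), of each tested gene in the Polycomb and Trithorax lists, over all 5 arrays (black) and without knockout replicate 2 (open red); the grey band holds the 5th to 95th percentile of all genes tested. With all arrays, Scml2 (-0.77), Hmga2 (-0.58) and Kdm6b (0.38) lie outside the band, which was computed over all 5 arrays. Without that array Phc1 (0.47), Pcgf6 (0.39), Cbx6 (0.38), Jarid2 (0.38) and Ebf1 (-1.29) lie outside it, and Scml2 lies at -0.15. Both remaining knockout values of Ebf1 lie below the filter level of 5.77.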

How the data were processed

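RNA of sorted LT-HSCs was hybridised to 5 Affymetrix mouse arrays, 3 knockout and 2 control. Per the labels' protocols, biotinylated cRNA was made in 2 rounds of in vitro transcription. The deposited table gives 1 log2 intensity for each probe set in each array. The submitters' processing notes name RMA and Affymetrix Expression Console, with no version in the sources used here. RMA forces the arrays to a common distribution, which removes shifts common to most transcripts, and compresses dim values. Precision is limited by the number of arrays.

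Of 45037 probe sets other than Affymetrix controls, the 40% with the lowest mean (below 5.77) were left out and 27022 tested. Names are the platform annotation's: 34945 probe sets had 1 symbol, 932 several and 9160 none, and none was named from several. The brightest probe set annotated to a gene alone stood for the gene. Groups were compared with limma 3.58.1 in R 4.3.3 (lmFit, eBayes, no covariate), with two-sided p-values adjusted by Benjamini-Hochberg over all probe sets tested and a threshold of 0.05. The same fit was run on simulated arrays with independent noise, which checks the code and not how the threshold performs on these arrays. Exact permutation tests took the absolute difference of means over all 10 assignments of the arrays (scipy 1.17.1). Figures were drawn with matplotlib 3.10.9.

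Members and lists were chosen with earlier results of these data known. Named are all members, the genes of smallest p in each Polycomb, Trithorax, target and proliferation list (at most 4), and the brightest of each marker list (at most 3). Cdkn2a and Cdkn2b, below the filter, were named after their values were seen, as were Alas2, Epor, Phc1, Pcgf6 and Cbx6. Alternatives were another eBayes prior, other filters, weighted arrays, cyclic loess, centring on the median, averaged probe sets, blocking on the replicate number, and fits with 1 array left out.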

Additional observations from a re-analysis of the deposited data

How the results depend on the processing

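Of the 13 alternatives, those that kept at least 2 arrays in each group gave no limma call, and 0 of the 10 Polycomb genes were called. The lowest adjusted p of these genes was 0.856. An unadjusted limma p under 0.05 was found for 174 to 1160 probe sets, of 18015 to 45037 tested. With each gene's probe sets averaged it was found for 109 of 12813 genes. Cbx8 was not tested with the lowest 60% left out, which removed its probe sets. The groups of 4 genes (Eed, Bmi1, Cbx2 and Cbx8) did not overlap without control replicate 1 and those of 3 (Eed, Cbx8 and Rnf2) without control replicate 2; Ezh1 was the 1 such gene without knockout replicate 2 and Ezh2 the 1 without knockout replicate 3. Without knockout replicate 1 it was 0 of the 10. Of all genes tested, 45.3% did not overlap without control replicate 1 and 30.6% without control replicate 2. The shares were 11.7%, 27.4% and 17.1% without knockout replicates 1, 2 and 3. What the counts owe to smaller groups or to the array left out was not tested. As single arrays were left out, log2 differences ran from -0.42 to -0.17 for Ezh1, -0.083 to 0.056 for Ezh2, -0.18 to 0.36 for Eed, -0.072 to 0.064 for Suz12, -0.64 to 0.11 for Bmi1, -0.91 to 0.29 for Cbx2, -0.23 to 0.034 for Cbx7, -0.51 to 0.50 for Cbx8, -0.055 to 0.094 for Ring1 and -0.15 to 0.47 for Rnf2. Without an array left out, 8 of 79 recomputed differences turned sign, and the cause was not tested. These were Ezh2 (-0.037), Bmi1 (0.096) and Cbx7 (0.031) with array weights, Suz12 (0.049) with cyclic loess, and Eed (-0.020) and Cbx7 (0.0013) when each gene's probe sets were averaged. The replicate block gave -0.083 for Ezh2 and -0.055 for Ring1, the same values as leaving out knockout replicate 3, which has no control of its number. Deviations from the group means correlated at -0.54 and -0.57 for replicates 1 and 2 of both groups. The deviations of 2 controls are mirror images of each other by construction, so this cannot decide whether the numbers pair the arrays.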

Other observations

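Of the 28 probe sets of the Polycomb genes, 13 held an identical value in 2 or more arrays, 8 of them among the 10 left out by the filter. Of all probe sets, 42.6% did so, and 26.9% of those tested. The dimmest Rnf2 probe set read 4.28 in all 3 knockouts and in control replicate 2, and 4.44 in control replicate 1, and the dimmest Cbx7 probe set read 4.94 in 4 arrays and 4.86 in control replicate 1. An SD of zero over such values is not a measure of replicate error. Why values repeat was not tested.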
